A study of Mus musculus with 18 samples.

Results

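Budding organoids derived from cells called induced intestinal stem cells (iISCs) were compared with mouse embryonic fibroblasts (MEFs) across all genes on the array. The 6 arrays were taken by their titles, 3 of iISC organoids and 3 of MEFs, out of 18 in the series. All of them hold total RNA of C57BL/6 mice or cells, labelled with Cy3 and hybridised to a 1-colour Agilent mouse array. The other 12 arrays hold budding organoids from adult intestinal crypts, spherical and budding organoids from induced fetal-type intestinal progenitors (iFIPCs) and from fetal intestine (FI), and hepatocyte-like cells (iHep).

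The labels name neither the factors that induced the iISCs nor an age, a passage or a culture. They mark the MEF arrays as taken over from an earlier data set, so these MEFs are a reference fibroblast population and are not labelled as the cells that were converted. MEF arrays 2 and 3 differed by an SD of 0.1187 log2 units over 19923 probes, against 0.1098 from repeated spots alone and 0.2383 to 0.6828 for every other pair of replicates in the series. They differed by little more than this spot noise and were counted as 1 sample, which leaves 2 MEF samples against 3 iISC samples. No label says whether the samples are separate cultures or animals, so the p-values measure only the spread between samples, which may be technical. For the iISC and MEF comparison that spread comes from all 17 samples in the fit, those of the other groups included.

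Fibroblasts are mesenchymal cells that secrete collagen and other matrix proteins, pull on that matrix with actin cables and are held in this state by factors such as Twist, Zeb and Snail proteins. The intestinal epithelium is a single sheet of polarised cells, joined by E-cadherin and tight junctions and renewed from Lgr5-positive stem cells at the crypt base. Its daughters are absorptive enterocytes and secretory Paneth, goblet, enteroendocrine and tuft cells, and its identity rests on CDX2, HNF4A and GATA factors. The published conversion of fibroblasts to intestinal progenitors used Hnf4a, Foxa3, Gata6 and Cdx2.

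Levels are log2 intensities minus the 75th percentile of the gene probes on the same array, so 0 is a fairly bright probe, and levels of different genes cannot be ranked against each other. The 2 sides were scanned on different scanner models and lie on different slides, so scanner, slide and cell type cannot be told apart. The 7 spike-in controls that were above background on every array were 0.53 to 1.23 log2 units lower on the iISC side, with a mean of -0.93. The part of this offset in the gene values was not tested. The 75th percentile of intensity ran from 805.3 to 1484.4 on the MEF arrays and from 929.7 to 996.9 on the iISC arrays, and 56.12 to 68.65% of gene probes on these arrays were well above background. In whole-culture RNA, fewer cells of a type and less RNA per cell cannot be told apart.

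Of 14792 genes tested, 7179 (48.5%) were called, which required both a limma adjusted p below 0.05 and a difference of 1 log2 unit or more. In the iISC organoids 3410 genes were higher (23.1%) and 3769 lower (25.5%), and the median over all genes tested was -0.01. Changes of at least 4 log2 units were seen for 992 genes called higher and 1361 called lower. The samples of the sides did not overlap for 80.4% of genes tested, so non-overlap alone says little here. When arrays were scaled on the spike-ins instead, the median change became 0.92, and 6920 genes were higher and 2411 lower (74.2% of calls higher, against 47.5%). Changes smaller than about 1 log2 unit therefore have no settled direction. Of 62 gene lists by function, which held 934 genes tested, 414 genes were higher and 320 lower.

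**Figure D1:**
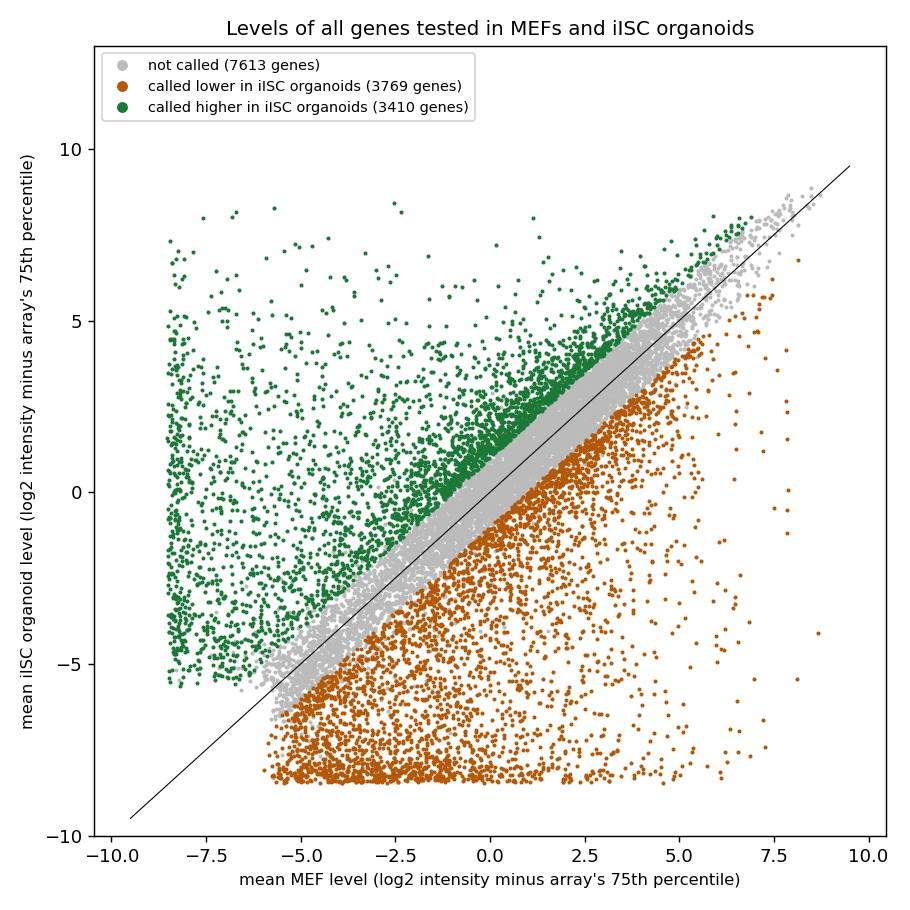
Mean level of every gene tested in the 2 MEF samples (x axis) and the 3 iISC organoid samples (y axis), both in log2 intensity relative to the array's 75th percentile, with genes called higher or lower coloured. Both wings reach far from the diagonal, with 992 genes at least 4 log2 units higher and 1361 at least 4 lower.

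In many cases 1 side had no array well above background, which held for 543 of the genes called higher and 1016 of those called lower. For these, only a bound is given, as "at least" a fold, computed from the bright side's mean over the lowest signals measured above background on the dim side's arrays. Other changes are in log2 units with the standard error (SE) of the fit, and mean levels carry their SD over 3 iISC or 2 MEF samples.

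The 15 largest rises whose samples did not overlap included Vil1, the actin bundler villin of microvilli, at least 8550-fold higher. Reg3b, an antibacterial lectin, read 6.82, 7.37 and 6.87 against -7.66 and -8.81, at least 9930-fold. Lgals2, a galactose-binding lectin, rose by 14.87 ± 0.16, Anxa13, an annexin of apical membranes, was at least 9770-fold higher, and Guca2b, the peptide uroguanylin, at least 5990-fold. Among the 15 largest falls, Serpinh1, the collagen chaperone, read -6.67, -7.60 and -5.63 against 7.20 and 7.21, and the bone and cartilage matrix inhibitor Mgp read -7.44, -8.00 and -7.58 against 7.67 and 6.09, at least 8220-fold lower. Serpinf1, which blocks vessel growth, was at least 4670-fold lower, Fstl1 at least 6480-fold and Ccdc80 at least 5690-fold. Lgals2 was above background on 1 of the 3 MEF arrays.

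Genes of the fibroblast matrix were far lower in the iISC organoids. Of 15 fibrillar, beaded and fibril-associated collagens tested, 14 fell, with a median change of -10.37 (-9.64 with bounded genes set at their bound). Type I collagen, the main protein of connective tissue, had Col1a2 levels of -4.28, -3.83 and -4.20 in the iISC organoids and 8.73 and 8.59 in the MEF samples. All 3 organoid samples lay far below both MEF samples, and the level fell by 12.76 ± 0.97 log2 units (limma adjusted p = 1.13e-07). Col5a1, which starts the growth of collagen fibrils, was at least 4780-fold lower and Col6a1, of the beaded microfibrils around cells, at least 1050-fold. Col3a1, which forms the fine fibrils of soft tissue, read -8.73, -7.97 and -4.15 in the organoids and 6.96 and 6.23 in MEFs. The groups did not overlap, but iISC sample 3 stood well above samples 1 and 2. Col16a1 spread even more, at 0.99, -2.25 and -3.39 against 5.32 and 4.92, with iISC sample 1 highest. Col15a1, a basement membrane collagen, did not pass, at -1.41 ± 0.60, with no iISC array above background and MEF levels of -5.05 and -5.48.

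Fibre-forming glycoproteins went the same way, with 19 of 20 lower and a median of -10.46 (-9.87 with bounds). Fibronectin (Fn1), the cell-binding scaffold of the early matrix, was at least 5130-fold lower. Periostin (Postn) fell by 10.17 ± 1.45, and fibulin 5 (Fbln5), an elastic fibre protein, fell by 10.95 ± 0.30. Fbln5 read -4.92, -4.98 and -4.93 in the organoids against 5.93 and 6.09, with little spread on either side. The fibrillins Fbn1 and Fbn2, which form the microfibrils that hold elastin, were at least 765-fold and 488-fold lower. Only fibulin 1 (Fbln1) in this list was not called, at 0.63 ± 0.49, with the organoids at 2.06 ± 0.32. Small leucine-rich proteoglycans and lysyl oxidases fell for 12 of 13. Decorin (Dcn) and lumican (Lum), which space collagen fibrils, were at least 3700-fold and 1590-fold lower, and the crosslinking enzyme Lox at least 1980-fold. Prelp was not called, at 3.40, 2.70 and 1.55 against 2.00 and 1.67, where the samples overlapped.

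Most enzymes that cut matrix fell, and 2 rose. Among metalloproteinases, Adamts proteases and their Timp inhibitors, 16 of 18 were lower. Mmp2, the gelatinase of stromal cells, was at least 2250-fold lower, and the inhibitor Timp1 fell by 9.52 ± 0.41. Against the list, Mmp7, which Paneth cells use to activate defensins, rose by 8.40 ± 0.43, and the membrane-bound Mmp15 by 3.52 ± 0.28. Timp2 fell by 6.30 ± 0.41, yet at 1.73, 1.21 and 1.70 it was above its level in crypt organoids (-0.24 ± 0.62), a difference of 1.79 ± 0.38. Mmp14, a membrane-bound collagenase, fell by 5.24 ± 0.54 and was also below crypt organoids, with a difference of -1.84 ± 0.45. Mmp7 was above background on 2 of the 3 MEF arrays.

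Contractile and membrane genes of fibroblasts also fell. Of 14 actin-cable genes tested, 12 were lower, with a median of -4.44. Calponin 1 (Cnn1), a smooth muscle actin-binding protein, was at least 2710-fold lower, and Tpm2, a tropomyosin of stress fibres, fell by 10.67 ± 0.85. Mylk, the kinase that starts myosin contraction in both cell types, read 2.06, 2.06 and 2.30 in the organoids and 2.15 and 2.09 in MEFs, so the sides overlapped. Alpha smooth muscle actin (Acta2) depended on the probe. Its brightest probe fell by 3.46 ± 0.22, to 2.84 ± 0.10 in the organoids, close to the crypt organoid level of 2.84 ± 0.09, while another Acta2 probe, above background on all arrays of both sides, fell by 13.89. Tagln fell by 5.50 ± 0.34 on its brightest probe, and on its other probe, which no iISC array had above background, its mean was 5.39 in MEFs and -7.88 in the organoids. All 6 genes of caveolae, the small membrane pits rich in fibroblasts, were lower. Cav1 fell by 9.80 ± 0.95 and Cavin1 fell by 5.42 ± 0.37. Of 16 surface markers of fibroblasts 13 fell. Thy1 was at least 5390-fold lower, Pdgfra, a receptor for platelet-derived growth factor, at least 219-fold, and Pdgfrb fell by 6.35 ± 0.68. Ly6a and Nt5e were not called and varied between the organoid samples, Ly6a at -0.97, 1.06 and 2.62.

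Transcription factors of mesenchyme were lower for 33 of 36 tested, with a median of -6.74 (-5.60 with bounds). The repressors of E-cadherin were all among them. Snai2 was at least 1140-fold lower, Twist2 at least 408-fold, Zeb1 at least 302-fold, Snai1 at least 145-fold and Zeb2 at least 82.3-fold. None of them was above background on any iISC array. Twist1 read -8.47, -6.70 and -5.05 against 2.21 and 2.09 and fell by 8.89 ± 0.68, with only iISC sample 3 above background. Prrx1, a limb mesenchyme homeobox factor, fell by 7.77 ± 0.87, and Hic1, a mark of quiescent mesenchymal cells, fell by 9.65 ± 0.60. Osr2, Meis2 and Tbx15 did not pass. Osr2 read 0.74, -1.14 and 0.42 in the organoids against -0.85 and -1.80, and Meis2 -0.09, 1.53 and 1.57 against 2.41 and 3.19, both with spread among the organoids larger than among the MEFs. The forkhead factor Foxc1 fell by 3.40 ± 1.05 (adjusted p = 0.0598 without MEF sample 1) yet stayed 5.57 ± 1.07 above crypt organoids, of which 1 of 3 arrays was above background. Twist1 was above background on 1 of the 3 iISC arrays and Hic1 on 2 of them.

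**Figure D2:**
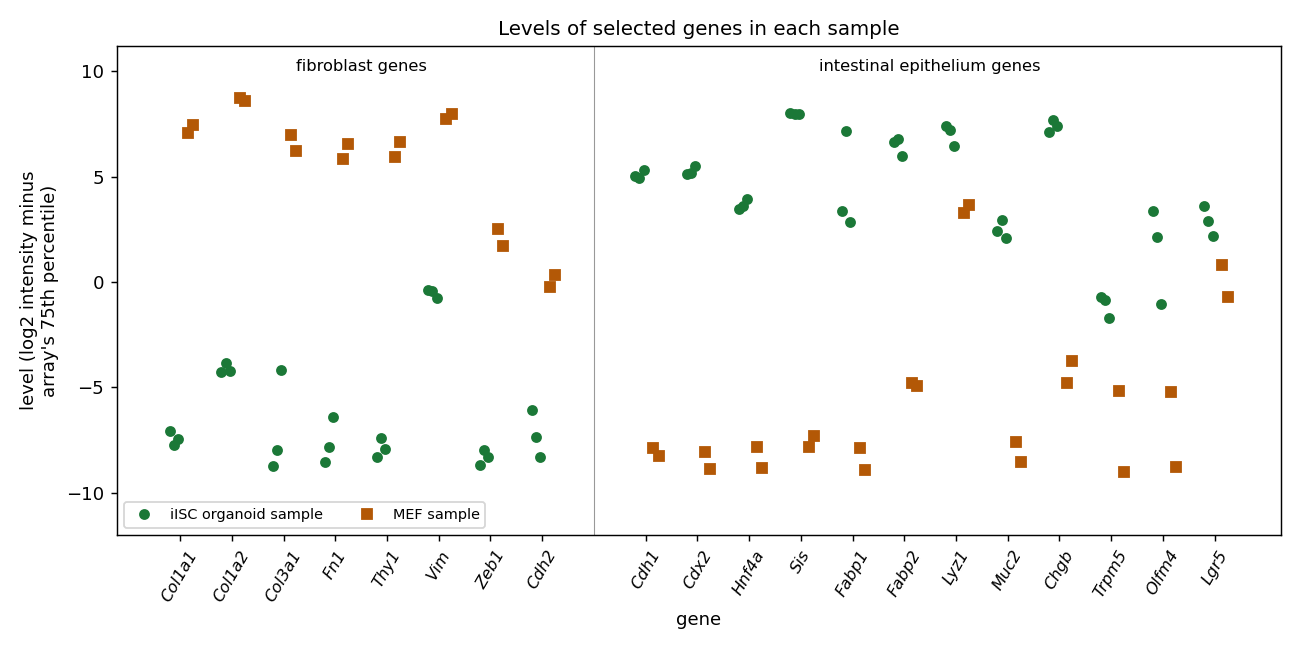
Level of selected fibroblast and intestinal genes in each sample (points; 3 iISC organoid samples, 2 MEF samples), in log2 intensity relative to the array's 75th percentile. For every gene shown except Lgr5 the sides were called different, and in Olfm4 and Fabp1 the iISC samples spread over several units.

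Some gene families did not fall or rise as a whole, and their members changed in opposite directions. Cadherins showed this plainly. E-cadherin (Cdh1), the adhesion molecule of epithelia, read 5.01, 4.95 and 5.31 in the organoids and -7.85 and -8.23 in MEFs, where no array was above background. The organoid values were close together and far above both MEF samples, at least 2610-fold. N-cadherin (Cdh2), its counterpart in mesenchyme, fell by 7.30 ± 0.58, and liver-intestine cadherin (Cdh17) rose by 7.58 ± 0.37. Cdh2 was above background on 1 of the 3 iISC arrays.

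Intermediate filaments turned from vimentin to simple keratins. Vimentin (Vim) read -0.36, -0.41 and -0.76 in the organoids against 7.73 and 7.96 and fell by 8.35 ± 0.46, with all organoid samples close together, and desmin (Des) of muscle was at least 48.2-fold lower. Keratins 8, 18, 19, 20, 7 and 23 all rose, with Krt8 up 10.96 ± 0.41, Krt18 up 6.85 ± 0.38 and Krt20, the keratin of mature enterocytes, up 6.60 ± 0.92. Keratins of stratified epithelia were not called, with Krt5 at -3.15 ± 1.52 against -4.38 ± 0.15 and iISC sample 3 highest. Nestin (Nes), a filament of progenitor cells, was not called either, at -0.88 ± 0.60, and was 3.30 ± 0.45 above crypt organoids.

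In the cortex beneath the membrane, the linker proteins changed partner. Ezrin (Ezr), which ties actin to the microvillus membrane, rose by 3.99 ± 0.21, whereas radixin (Rdx) fell by 7.73 ± 0.62 and moesin (Msn) was at least 248-fold lower. The actin bundler plastin 1 (Pls1) of microvilli rose by 9.37 ± 0.48 and plastin 3 (Pls3) fell by 4.31 ± 0.42. Of 17 integrin chains, 5 rose and 10 fell. The risers were Itgb4 by 5.62 ± 0.27, Itga6 by 3.23 ± 0.24 and Itga3 by 2.16 ± 0.25, which are laminin receptor chains, with Itgb6 at least 45.6-fold and the collagen receptor chain Itga2 at least 8.12-fold (0.97 log2 units and not called with normexp background correction). Itga11, another collagen receptor chain, was at least 2000-fold lower, and the fibronectin receptor chain Itga5 fell by 7.70 ± 0.45. Itga1, also of collagen receptors, was not called at -0.54 ± 0.44. Itgb3 gave no clear value, since its brightest probe changed by 0.47 while its other probe, above background on no iISC array, read 2.32 in MEFs and -8.08 in the organoids. Rdx and Itga5 were above background on 1 of the 3 iISC arrays.

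Basement membrane chains divided in a similar way. Chains of the laminin that anchors epithelia rose, Lamb3 at least 310-fold and Lama3 by 3.04 ± 1.03. The Lama3 call ended without either MEF sample, at adjusted p of 0.0745 and 0.0703, and with normexp, at 0.85 (adjusted p = 0.227). Among chains made by mesenchyme, Lama4 fell by 9.72 ± 0.98, Lamb1 fell by 7.23 ± 0.53 and the collagen chain Col4a1 fell by 8.74 ± 0.36. In this list 3 of 16 rose and 11 fell. Nidogen 1 (Nid1) fell by 4.21 ± 0.59 and yet was 4.37 ± 0.52 above crypt organoids, at 0.03, 1.30 and 0.95 against a crypt mean of -3.60 ± 0.29. Lama3 was above background on 2 of the 3 MEF arrays. Lama4 was above background on 1 of the 3 iISC arrays.

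**Figure D3:**
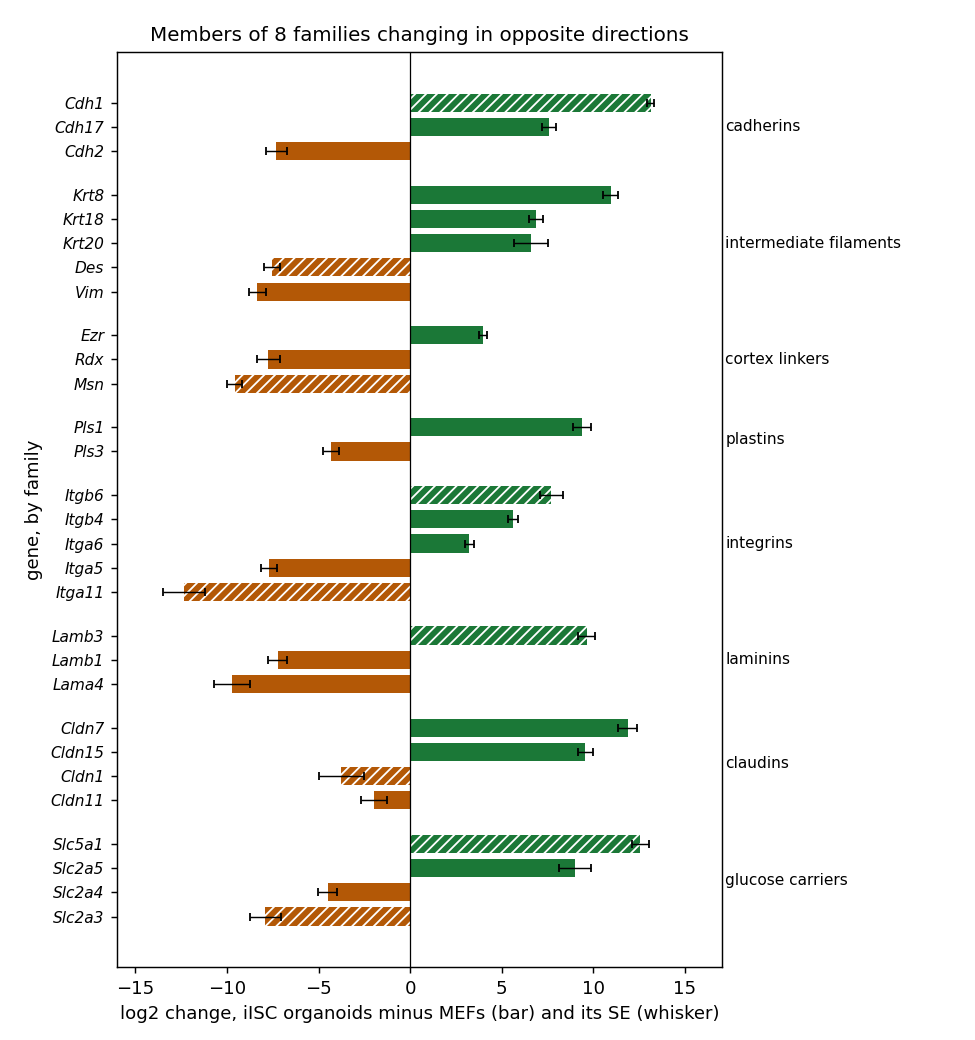
Log2 change, iISC organoids minus MEFs, of members of 8 gene families in which members changed in opposite directions; bars show the fitted change and whiskers its SE, hatched where no array of the dimmer side was above background, so that the bar's length is set by background. Within each of the 8 families bars point both ways, as for Cdh1 and Cdh2 or Ezr and Rdx. The families and members drawn were picked to show this, and members not called, such as Itga1 and Slc2a1, are left out. The figure therefore does not show how common such splits are.

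Junction genes rose together. Of 13 adhesion and desmosome genes 12 were higher, including Epcam at least 2890-fold and desmoplakin (Dsp) by 8.16 ± 0.53, and Jup alone was not called at 0.84 ± 0.33. Of 20 tight junction genes 16 rose, with a median of 7.92 (7.04 with bounds). Claudins, which set what passes between cells, split by member. Cldn7 rose by 11.88 ± 0.52, Cldn3 by 9.30 ± 0.29 and Cldn15, a sodium-permeable claudin of the small intestine, by 9.57 ± 0.41, and Cldn2 was at least 594-fold higher. Cldn11 fell by 1.95 ± 0.71, a call that ended on quantile scaling (adjusted p = 0.118) and with normexp, at -0.63, and Cldn1 was at least 3.64-fold lower. Without MEF sample 1 the Cldn11 change was -1.11, and without the merged MEF sample that of Cldn1 was -3.16, neither of them called. Tjp1, shared by many cell types, was not called at 0.74 ± 0.17. Cldn11 was above background on 1 of the 3 iISC arrays.

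Regulators of the epithelial state rose for 14 of 15. Elf3 was at least 454-fold higher, Grhl2, which keeps epithelial genes open, at least 135-fold, and the splicing factor Esrp1 at least 144-fold. Klf5, needed for crypt proliferation, rose by 5.03 ± 0.27. Klf4 was not called, at 0.93 ± 0.29, with bright levels on both sides. Genes of apical traffic rose for 9 of 11, including Myo5b, the motor that brings vesicles to the brush border, by 9.81 ± 0.51, and Mal2 by 9.45 ± 0.58. Myo5b was above background on 2 of the 3 MEF arrays.

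The 4 genes used in the published conversion were all higher in the organoids, and the array cannot tell a transgene from the cell's own gene. Foxa3 read 0.32, 0.09 and -0.29 against -7.96 and -8.44, at least 78.7-fold. Gata6 was already measurable in MEFs at -0.56 and 0.18 and reached 3.07, 3.13 and 2.65, a rise of 3.14 ± 0.29. The Cdx2 levels were 5.11, 5.17 and 5.52, and those of Hnf4a were 3.48, 3.59 and 3.96, with no MEF array above background for either. None of the 4 was called different from crypt organoids, with differences of 0.14 ± 0.21 for Cdx2 and -0.98 ± 0.23 for Gata6.

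Other gut factors rose for 19 of 23 tested. Sox2, a factor of stomach and nerve, was at least 2.71-fold lower, or -0.97 and not called with normexp. Cdx1, a relative of Cdx2, was at least 117-fold higher. The nuclear receptors Nr1h4, for bile acids, and Nr1i2, for foreign compounds, rose by 9.61 ± 1.12 and 9.46 ± 0.54, and the vitamin D receptor Vdr by 5.52 ± 0.55. Of 24 such factors tested against crypt organoids, 4 were lower. Foxa1, a pioneer factor of gut endoderm, read -3.76, -3.89 and -3.37, at least 5.99-fold above MEFs (adjusted p = 0.0802 without MEF sample 1, and 0.119 with normexp), with a difference of -3.53 ± 0.39 from crypt organoids. Onecut2 read -3.91, -0.53 and -1.84 against -4.62 and -3.70, was not called against MEFs and differed from crypt organoids by -5.27 ± 0.95. The others were Onecut3, by -1.97 ± 0.35 with 2 of 3 iISC arrays above background, and the nuclear receptor Nr1i3, by -1.15 ± 0.26. Pdx1 could not be tested because only 1 of 3 iISC arrays was above background, at -7.96, -5.80 and -2.97. Nr1h4 and Nr1i2 were above background on 1 of the 3 MEF arrays.

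The promoters of Sis, Fabp1 and Ankrd1 are shown as examples of genes far higher (Sis, Fabp1) or far lower (Ankrd1) in the organoids. CDX, HNF4, GATA and TEAD factors are known to bind such short motifs. Each is the 250 bases before the start of the gene in RefSeq, mouse build GRCm38.p6, written 5′ to 3′ on the gene's strand. Capitals show matches of a chosen motif for each gene, on either strand, and matches of the other motifs stay in lower case. The motifs reported are TTTATG for CDX factors, CAAAGT for HNF4, AGATAA for GATA factors, GGAATG for TEAD factors and the TATA box letters TATAAA, searched on both strands, where matches of different motifs may overlap in part. Capitals mark TTTATG in Sis (chr3:72967864-72968113, minus strand) and Fabp1 (chr6:71199629-71199878, plus strand) and GGAATG in Ankrd1 (chr19:36119845-36120094, minus strand).
Sis: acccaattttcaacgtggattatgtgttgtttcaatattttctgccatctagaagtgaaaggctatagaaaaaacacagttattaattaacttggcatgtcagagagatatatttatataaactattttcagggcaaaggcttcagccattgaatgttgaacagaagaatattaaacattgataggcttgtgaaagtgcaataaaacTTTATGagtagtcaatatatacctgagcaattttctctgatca
Fabp1: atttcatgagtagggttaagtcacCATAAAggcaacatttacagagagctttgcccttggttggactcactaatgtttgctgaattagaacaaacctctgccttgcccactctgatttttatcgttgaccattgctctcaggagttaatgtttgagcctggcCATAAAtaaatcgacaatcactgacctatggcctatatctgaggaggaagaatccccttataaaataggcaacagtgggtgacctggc
Ankrd1: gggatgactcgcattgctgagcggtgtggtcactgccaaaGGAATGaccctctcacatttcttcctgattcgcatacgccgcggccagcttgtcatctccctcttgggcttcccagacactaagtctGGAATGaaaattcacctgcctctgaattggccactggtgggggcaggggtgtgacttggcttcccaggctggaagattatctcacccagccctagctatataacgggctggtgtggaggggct
Sis encodes the sucrase-isomaltase of the brush border, Fabp1 also was far higher, and Ankrd1 is a target of YAP and TEAD that was lower. In Sis the match TTTATG begins 43 bases before the start. In Fabp1 that motif lies on the opposite strand from -226 and from -88. TTTATG occurs in 10.8% of the 32851 RefSeq windows of this length, in 10.9% of 965 windows of genes called at least 4 log2 units higher and in 7.17% of 1325 windows of genes called at least 4 lower. The shares for GGAATG were 12.6%, 14.5% and 14%, those for CAAAGT 12.6%, 15.6% and 12.3%, those for AGATAA 9.99%, 12.7% and 5.66% and those for TATAAA 12.4%, 13.4% and 9.89%. Over windows of all genes tested, 6.73% held TTTATG, 11.1% GGAATG, 6.54% AGATAA and 7.91% TATAAA, and 1594 of these 14886 windows held CAAAGT. A match is a description of the sequence and not a binding site.

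Enterocyte genes were high. Of 19 microvillus genes 15 rose, among them Myo1a, the membrane motor of microvilli, by 8.49 ± 0.54, and Cdhr5, a link between microvilli, at least 856-fold. Brush border enzymes rose for 14 of 16 tested. Sucrase-isomaltase (Sis) read 8.03, 7.95 and 7.95 in the organoids and -7.84 and -7.30 in MEFs, at least 19300-fold, and its organoid values lay close together. The second starch enzyme, Mgam, rose by 10.27 ± 0.34. Lactase (Lct), the enzyme of suckling, read 1.87, -2.85 and -1.32 against -4.90 and -5.56. It rose by 4.46 ± 1.45, with sample 1 well above the other organoid samples. Without that sample the change was 3.15 (adjusted p = 0.0593), and without the merged MEF sample 4.13 (adjusted p = 0.079), and with normexp it was 2.56 (adjusted p = 0.086). The intestinal alkaline phosphatases were lower than in crypt cultures. Alpi was at least 281-fold above MEFs and differed from crypt organoids by -2.21 ± 0.47, and Akp3, above background on no iISC or MEF array, was at least 5.69-fold below them.

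Sugar carriers changed member as well. The sodium-coupled glucose carrier Slc5a1 was at least 1670-fold higher, the basolateral Slc2a2 at least 206-fold, and the fructose carrier Slc2a5 rose by 8.98 ± 0.87. The insulin-dependent Slc2a4 fell by 4.49 ± 0.52 and Slc2a3 was at least 87.6-fold lower, while Slc2a1 of most cultured cells was not called at -0.19 ± 0.63. Khk, the first enzyme of fructose use, rose by 5.31 ± 0.39. Among amino acid carriers 10 of 17 rose. Slc6a19, the main neutral carrier of the brush border, was at least 120-fold higher and Slc7a9 rose by 9.82 ± 0.38. Slc7a5 fell by 1.14 ± 0.40 and Slc36a1 fell by 1.03 ± 0.29, and on the spike-in scale neither was called, at -0.21 and -0.10. Leaving out the merged MEF sample ended both calls (adjusted p = 0.0521 and 0.0768), leaving out MEF sample 1 or iISC sample 2 ended that of Slc7a5 (adjusted p = 0.114 and 0.068), and leaving out iISC sample 3 that of Slc36a1, at -0.97. Slc7a9 was above background on 1 of the 3 MEF arrays and Slc2a5 on 2 of them. Slc2a4 was above background on 2 of the 3 iISC arrays.

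Lipid handling rose for 18 of 24 genes, with a median of 5.46. Fabp2, the intestinal fatty acid binding protein, read 6.62, 6.78 and 5.99 against -4.78 and -4.95 and rose by 11.33 ± 0.56. Fabp1, its liver-type relative, read 3.39, 7.15 and 2.85 in the organoids, at least 1690-fold above MEFs on average. Sample 2 was far above samples 1 and 3, and crypt organoids were at 8.21 ± 0.16. Npc1l1, the cholesterol uptake protein, was at least 909-fold higher, Apoa4 of chylomicrons at least 1350-fold and Apob at least 184-fold. The fat cell and macrophage protein Fabp4 fell by 8.07 ± 1.66 and Apoe fell by 6.67 ± 0.95. Apob differed from crypt organoids by -1.72 ± 0.40. Fabp4 was above background on 2 of the 3 iISC arrays.

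All 6 bile acid genes tested rose. Slc10a2, the bile acid carrier of the ileum, read 2.08, 1.37 and 0.99 against -7.62 and -8.78, at least 213-fold. Crypt organoids had it at only -4.98 ± 0.65, so the iISC organoids exceeded them by 6.46 ± 1.23. Fgf15, the ileal hormone that represses bile acid synthesis, read -5.10, -2.28 and -0.10 in the 3 samples, at least 13.6-fold above MEFs on average, with sample 3 far above sample 1. With normexp its change was 1.66 and not called (adjusted p = 0.0757). Vitamin A genes went both ways, with 6 of 14 higher, 5 lower and 3 not called. Uptake and storage genes Rbp2 (at least 162-fold) and Lrat (at least 17.3-fold) rose with the oxidising enzyme Aldh1a1 (5.60 ± 0.71). Retinoic acid genes of embryonic mesenchyme were lower, Crabp1 at least 923-fold and Aldh1a2 at least 32.6-fold. The Aldh1a family thus had no common direction, and Aldh1a3 was not called at 0.84 ± 1.24.

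All 18 genes of ion and fluid transport rose, against 23.1% of all genes called higher, with a median of 4.86. Cftr, the chloride channel of crypts, read 2.84, 2.95 and 3.30 against -5.36 and -7.03 and rose by 9.22 ± 0.93. The peptides that act on its guanylate cyclase partner were also up. Guca2a rose by 12.17 ± 0.63 and stood 2.91 ± 0.59 above crypt organoids, and its receptor Gucy2c rose by 7.01 ± 0.67. The zinc importer Slc39a4 rose by 9.99 ± 0.30 and the calcium buffer S100g by 9.68 ± 1.07. Of the urea cycle and arginine genes, Cps1 and Otc, which make citrulline in enterocytes, were at least 1120-fold and 629-fold higher, while Ass1, which uses it, fell by 4.46 ± 0.53. Enzymes for foreign compounds rose for 27 of 31. Cyp3a13 was at least 2120-fold higher, Gsta1 rose by 12.49 ± 0.32 and Ces2e by 9.30 ± 0.81, while Cyp1b1 and Cyp7b1, expressed in stroma, were at least 320-fold and 109-fold lower and Cyp27a1 at least 2.08-fold (adjusted p = 0.0507 without the merged MEF sample, and a change of -0.65, not called, with normexp). The ABC exporters Abcb1a and Abcc2 were at least 125-fold and 250-fold higher. Cftr was above background on 1 of the 3 MEF arrays and Gsta1 on 2 of them.

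Fat-burning genes rose for 10 of 16, mostly by small amounts. The ketone enzyme Bdh1 rose by 4.15 ± 0.42 and the nuclear receptor Pparg by 3.65 ± 0.34. Pdk4, which diverts cells from sugar to fat, fell by 5.50 ± 1.56, with organoid values of -8.68, -3.56 and -6.58. Genes of iron and mineral uptake rose for 7 of 10, including the iron oxidase Heph by 4.29 ± 0.77. Cybrd1, the duodenal iron reductase, was not called, at -0.28, 0.91 and -0.56 against -0.62 and -2.88. Among genes of neighbouring gut segments, Car4 was at least 4.21-fold higher, or 0.56 log2 units and not called with normexp. Car1 and Aqp8 of the colon were not called and differed widely between the organoids, Car1 at -3.84, 1.04 and 0.86 and Aqp8 at -4.65, -1.08 and 0.80. Of 7 gastric markers tested, 2 were higher and 1 lower, and with normexp 0 were higher. The gastric gene Gkn3 rose by 2.68 ± 1.03, or 1.71 and not called with normexp. The gastric peptide Tff1 was not called, at 2.21 ± 1.11, with sample 3 highest at -1.44. Pdk4 was above background on 1 of the 3 iISC arrays.

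**Figure D4:**
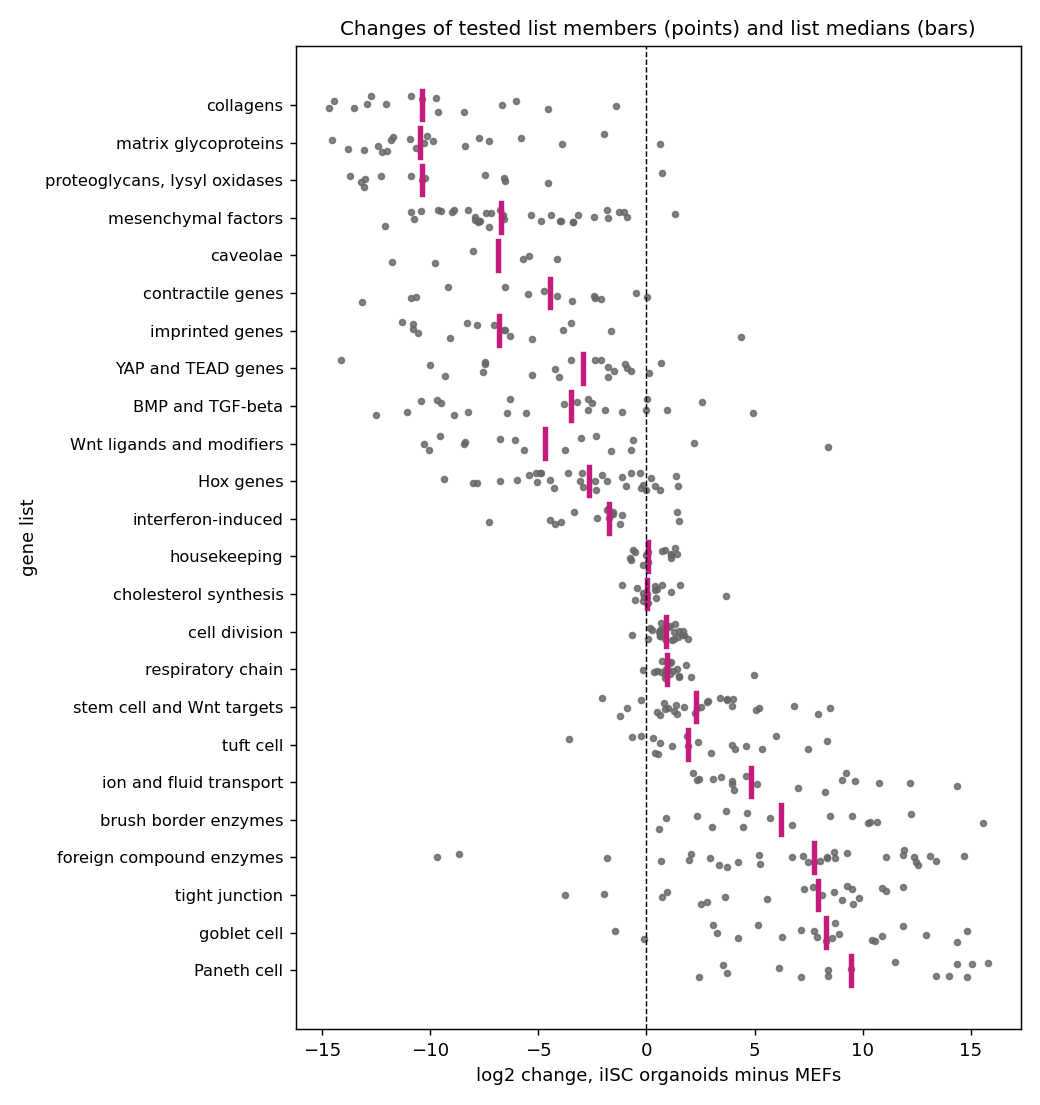
Log2 change, iISC organoids minus MEFs, of every tested member (points) of 24 gene lists, with the list median as a bar and the median of all genes tested as a dashed line at -0.01. Matrix and mesenchymal lists lie left of the line and junction, enterocyte and secretory lists right of it, while cell cycle, cholesterol and housekeeping lists lie close to it.

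Genes of the secretory lineages were higher too. Every one of 15 Paneth cell genes and 7 Reg lectins tested rose. Defensins were near the top, with Defa24 at 8.07, 7.99 and 8.04 against -6.33 and -7.30, at least 19600-fold. Lyz1, the lysozyme of Paneth cells, read 7.38, 7.23 and 6.47 against 3.26 and 3.67 and rose by 3.56 ± 0.82, from MEF levels that were already well above background. Probes of the defensin family can share sequence, so single defensins are uncertain. Reg3g, which kills Gram-positive bacteria, rose by 10.49 ± 0.94, and Reg3a was at least 1520-fold higher.

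Goblet cell genes rose for 19 of 21 tested. Muc2, the gel-forming mucin, read 2.42, 2.94 and 2.10 against -7.60 and -8.53, at least 429-fold. The trefoil peptide Tff3 and the mucin folding factor Agr2 were at least 8380-fold and 5100-fold higher. Atoh1, which opens the secretory fate, read -1.72, -1.59 and -1.90, at least 22.9-fold higher, and the maturation factor Spdef was at least 146-fold higher. Of the 2 not called, the membrane mucin Muc1 read -7.84, -7.65 and -4.98 against -5.14 and -5.66. Without sample 3 its change was -2.35 (adjusted p = 0.00247).

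Enteroendocrine genes included hormones of the upper and the lower gut. Of 17 hormone and granule genes 16 rose. Gip, made by K cells of the upper intestine, and Gcg, the proglucagon gene of L cells, were at least 738-fold and 698-fold higher. Chromogranin B (Chgb), a granule protein of all these cells, rose by 11.68 ± 0.38, with organoid values of 7.11, 7.71 and 7.42. Pyy, another L cell peptide, read 4.62, 3.52 and 2.12 against -3.56 and -3.28 and rose by 6.84 ± 1.15. It was 5.26 ± 1.17 above crypt organoids, and neurotensin (Nts), of the ileum, 3.08 ± 0.69 above them. Insl5 of the colon was not called, at 0.55 ± 1.42. Of the lineage factors 11 of 14 rose, including Neurog3, which commits cells to this fate, by 3.57 ± 0.34, and Pax4 at least 25.3-fold.

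Tuft cell genes were mixed. Of 19 tested, 11 rose, 1 fell and 7 were not called. The taste channel Trpm5 rose by 6.01 ± 0.80, with -0.72, -0.86 and -1.70 in the organoids, and Rgs13 was at least 82.1-fold higher. Ptgs1, which fibroblasts also make, fell by 3.58 ± 0.95. Dclk1, a common tuft marker, had 6 probes above background on every MEF array, with changes from -4.51 to 0.67, and Pou2f3, the tuft cell master factor, was above background on no iISC or MEF array. Trpm5 was above background on 1 of the 3 MEF arrays.

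Of the genes of stem cells and Wnt signalling, 16 of 28 rose, with a median of 2.30. Olfm4, a marker of crypt base cells, read 3.38, 2.12 and -1.03 in the organoids against -5.22 and -8.76 and rose by 8.48 ± 1.33. Its organoid values were far apart, with sample 3 lowest. The Wnt feedback genes Rnf43 and Axin2 rose by 6.84 ± 0.52 and 3.99 ± 0.83, and Ascl2, a stem cell factor, by 3.75 ± 0.50. Lgr5 read 3.62, 2.89 and 2.20 against 0.81 and -0.71. The sides did not overlap, yet the change of 2.86 ± 1.86 was not called (adjusted p = 0.187). With only the 5 samples of the comparison in the fit it was called (adjusted p = 0.0129), as it was with normexp, at 2.81 (adjusted p = 0.0188). It was also called without the iHep arrays (adjusted p = 0.00117), an alternative chosen after seeing the data. Smoc2, Lrig1 and Ephb2, which MEFs also had, were not called, at 1.00, 0.87 and 0.64. Cd44, a Wnt target that fibroblasts carry too, fell by 2.04 ± 0.38 on its brightest probe and changed by -0.66, not called, on the mean of its bright probes. Olfm4 was above background on 1 of the 3 MEF arrays.

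Niche signals changed by their usual cell of origin. Wnt3, the Wnt ligand of Paneth cells, read 1.37, 0.23 and -0.30 and was at least 103-fold higher. Wnt9b, at -2.58, -4.89 and -5.58 against -7.35 and -5.79, rose by 2.22 ± 0.80, a call that ended without iISC sample 1 (adjusted p = 0.0889) or MEF sample 1 (adjusted p = 0.226), with only the 5 samples (adjusted p = 0.117) and with normexp, at 0.37 (adjusted p = 0.427). The stromal ligands and modifiers were lower, Rspo2 at least 218-fold, Sfrp1 at least 268-fold and Wnt2 at least 47.5-fold, and Dkk3 fell by 10.05 ± 1.18. In all, 11 of 16 tested were lower and 2 higher. The BMP antagonist Grem1 and the activin subunit Inhba, both made by stroma, were at least 552-fold and 1600-fold lower, Tgfb3 fell by 10.41 ± 0.73 and Bmp4 fell by 6.30 ± 0.69. Bmp7 and Bmp2 rose, by 4.94 ± 0.37 and 2.55 ± 0.37. Id3, a BMP target, fell by 2.53 ± 0.45 but stayed 1.93 ± 0.40 above crypt organoids. Wnt9b was above background on 2 of the 3 MEF arrays. Dkk3 was above background on 1 of the 3 iISC arrays and Tgfb3 and Bmp4 on 2 of them.

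Growth factor genes split evenly, with 11 higher and 11 lower of 25. The receptor Erbb3 rose by 9.20 ± 0.47 and the EGF family ligands Areg, Btc and Tgfa by 6.64 ± 0.74, 4.30 ± 0.45 and 2.99 ± 0.18. Egfr itself fell by 1.76 ± 0.22, or -0.83 and not called on the spike-in scale. Stromal factors that act on epithelia were lower, Fgf7 and Fgf10 at least 91.3-fold and 38.1-fold and Igf1 at least 178-fold, and Hgf fell by 4.64 ± 0.72. Among Notch genes, the ligands Dll1 and Jag2 rose by 5.22 ± 0.43 and 6.48 ± 0.55 and the target Nrarp was at least 68.8-fold higher. The receptor Notch2 fell by 1.72 ± 0.19 and Notch3 fell by 3.49 ± 0.86 (Notch2 -0.79 and not called on the spike-in scale), and Notch1 was not called at 0.23 ± 0.33. Jag2 was above background on 2 of the 3 MEF arrays. Hgf was above background on 1 of the 3 iISC arrays.

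Changes in genes of division were small. Of 24 tested, 11 rose and 0 fell, with a median of 0.92. Mki67, present in all dividing cells, read 4.90, 4.27 and 4.32 against 2.84 and 2.70 and rose by 1.73 ± 0.28, and the helicase subunit Mcm6 by 1.67 ± 0.17. Cdk1 and Rrm2 were not called, at 0.24 ± 0.24 and -0.66 ± 0.22. On the spike-in scale 23 of the 24 were called higher, so the count rests on the scaling. Respiratory chain genes gave 11 of 23 higher with 22 on the spike-in scale and 6 on quantile scaling, and Sdhd up 2.08 ± 0.19. Cox7a1, an isoform of limited tissue range, rose by 4.98 ± 0.86. Among 13 cyclins D and E, CDK inhibitors and Trp53, 2 rose, 6 fell and 5 were not called, with a median of -0.74. Ccnd3 fell by 2.87 ± 0.23 and Cdkn2a, which rises in cultured fibroblasts, fell by 5.99 ± 0.77, though at -6.36, -5.03 and -4.33 it was at least 2.66-fold above crypt organoids. Cholesterol synthesis was close to MEF level, with 14 of 18 genes not called and a median of 0.05. Of 15 housekeeping genes 5 rose and 10 were not called, and on quantile scaling 2 rose. Gapdh rose by 1.13 ± 0.28, but was 0.72 and not called on quantile scaling.

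Hox genes, which mark position along the body axis, differed by cluster. Of 32 tested, 15 fell, 1 rose and 16 were not called. Genes in the middle and posterior part of HoxA were near MEF level. Hoxa9 read 0.93, 1.13 and 0.79 against -0.54 and -0.50 and rose by 1.47 ± 0.29. Hoxa7 read 2.17, 3.41 and 2.67 against 2.72 and 3.11, with overlapping samples, and Hoxa13 -4.23, -5.43 and -2.78 against -3.90 and -5.65. Hoxa9 was 3.48 ± 0.15 and Hoxa7 4.38 ± 1.03 above crypt organoids, and Hoxa13, which no crypt array had above background, at least 5.67-fold. Hoxa11, a posterior member, read 2.49, 1.70 and 2.40 against 2.35 and 1.60 and lay at least 460-fold above crypt organoids, where no array measured it, and Hoxa10 read 1.90, 1.68 and 1.65 against 0.53 and 0.22 and lay 8.44 ± 0.95 above them, with 1 of 3 crypt arrays above background. Against MEFs the Hoxa10 change of 1.37 ± 0.95 was not called, but with normexp it was 1.30 and called (adjusted p = 0.000398). In HoxC, Hoxc9 and Hoxc8 were at least 135-fold and 7.83-fold lower, and Hoxc6 fell by 8.02 ± 1.24. In HoxD, Hoxd10 was at least 33.3-fold lower and Hoxd13 fell by 7.83 ± 1.75, whereas Hoxd9 was not called, at -3.87, -3.90 and -4.19 against -3.55 and -2.99. Hoxc6 and Hoxd13 were above background on 1 of the 3 iISC arrays.

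HoxB genes depended on the sample. Hoxb7 read -8.76, 3.18 and -8.39 in the organoids and -0.11 and 0.98 in MEFs, and Hoxb2 -7.54, 1.75 and -6.49 against -0.45 and 1.19. Hoxb5 read -8.59, -0.09 and -8.22 against -2.64 and -1.40, Hoxb8 -8.78, 0.11 and -8.40 against -2.99 and -2.47 and Hoxb9 -5.83, 0.71 and -6.63 against -0.38 and 1.11. In each of these 5 genes iISC samples 1 and 3 lay far below both MEF samples. Sample 2 lay between the MEF samples in Hoxb9 and above both of them in the other genes, as for Hoxb8 and Hoxb7. None of the 5 was called. Without sample 2 all of them were called lower, with changes from -5.86 for Hoxb8 to -9.01 for Hoxb7. Hoxb6 was much alike in all 5 samples, at -1.87, -1.49 and -1.46 against -1.42 and -1.73, and crypt organoids were at -1.82 ± 0.20.

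**Figure D5:**
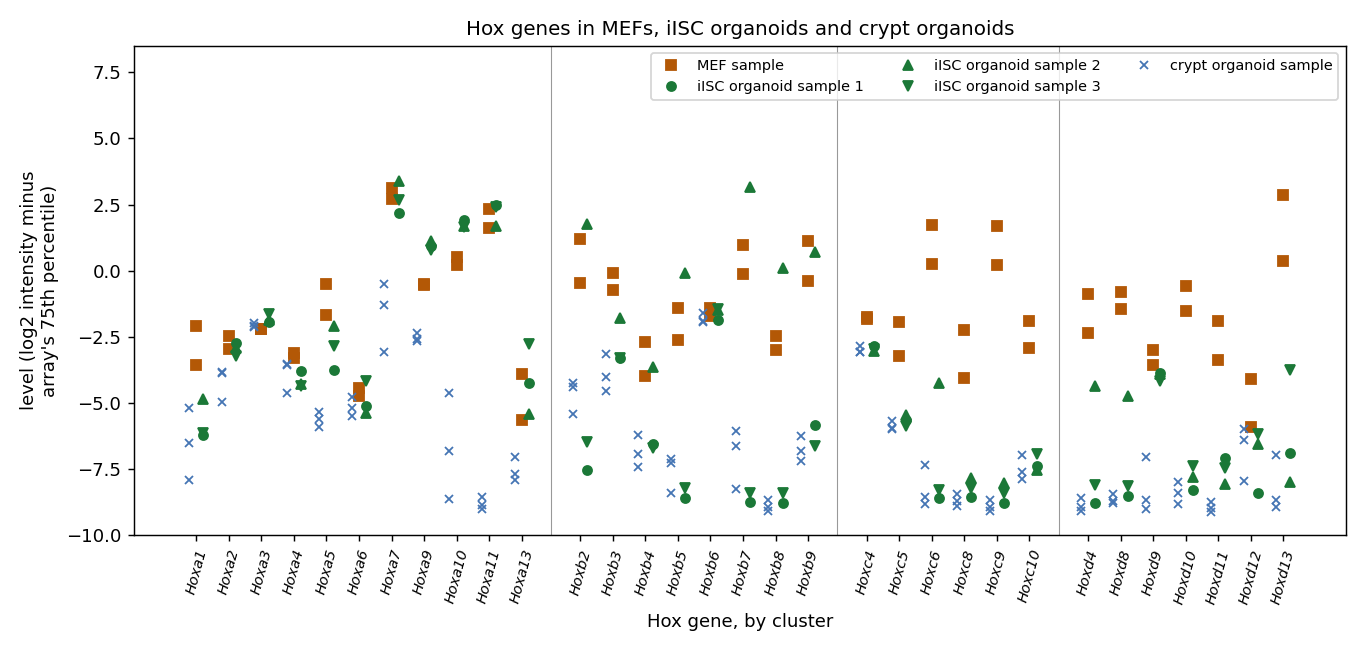
Level of each Hox gene tested, by cluster, in the 2 MEF samples, each iISC organoid sample and the 3 crypt organoid samples, in log2 intensity relative to the array's 75th percentile. Hoxa7, Hoxa9, Hoxa10, Hoxa11 and Hoxa13 of iISC organoids sit near MEFs and above crypt organoids. Of the iISC samples, only sample 2 sits at or above MEF level in Hoxb2, Hoxb5, Hoxb7, Hoxb8 and Hoxb9.

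Single samples stood apart in other genes too. Over all genes tested, iISC sample 3 was at least 2 log2 units above both other organoid samples for 104 genes, sample 1 for 72 and sample 2 for 59. Crypt replicate 1 stood above its partners for 121 genes. Some genes that MEFs express strongly were among those of sample 3. Summed linear levels of whole lists differed in which sample was highest, but a single bright gene can set such a sum. In samples 1, 2 and 3 they were 2.51, 0.402 and 0.336 for the collagens and 10.72, 6.60 and 3.22 for the proteoglycans and lysyl oxidases. They were 10.97, 17.34 and 20.75 for the basement membrane list and 14.19, 14.24 and 33.41 for the imprinted list. Prelp made up most of the sums of proteoglycans and lysyl oxidases. Col16a1 made up most of the collagen sum of sample 1, and Igf2 most of the imprinted sum of sample 3. These sums therefore show no shift of a whole list. Igf2, a fetal growth factor, read -1.32, -2.78 and 4.27 against 7.99 and 7.78 and fell by 7.82 ± 1.47, less in sample 3 than in the others. Spp1 was -8.57, -7.90 and 0.19, Ccl2 -7.99, -6.93 and -1.88, Ccl7 -8.54, -7.79 and -4.55 and Cxcl5 -8.81, -8.05 and 1.18, each with sample 3 highest. Cxcl5 was called only without sample 3, with a change of -8.50 (adjusted p = 5.01e-05), or on some other settings. Col1a1 and Fn1, both main fibroblast matrix genes, were above background in none of the 3 samples. Other fibroblast genes were highest in sample 3, as Col3a1 at -4.15 against -8.73 and -7.97 and Serpinh1 at -5.63 against -6.67 and -7.60. Twist1 was above background in sample 3 only, whereas Col1a1 and Col16a1 were highest in sample 1. The part of residual fibroblasts in the values of sample 3 was not tested.

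Imprinted growth genes fell together. Of 16 tested, 15 were lower and 1 higher. H19, the untranslated RNA next to Igf2, fell by 10.81 ± 0.74, Dlk1 fell by 6.33 ± 1.04 and Grb10 fell by 8.31 ± 0.96. Phlda2, which limits placental growth, rose by 4.38 ± 0.53. Genes driven by YAP and TEAD in spread cells were lower for 14 of 20. Ankrd1, whose promoter is printed with its 2 GGAATG matches, was at least 211-fold lower, Ccn1 fell by 5.27 ± 0.26 and Ccn2 fell by 7.57 ± 0.61. Ccn2 nevertheless stayed 2.96 ± 0.52 above crypt organoids. The coactivator Wwtr1 fell by 7.46 ± 0.65 and its relative Yap1 fell by 1.52 ± 0.20, or -0.58 and not called on the spike-in scale. Of the genes that mark fetal intestinal spheroids, Anxa1 fell by 4.13 ± 0.87, at 0.98, 2.29 and 3.88, and Gja1 was at least 140-fold lower. Clu was not called, at -0.75, -0.18 and 1.75 against 1.78 and 1.20, with sample 3 highest, and without that sample its change of -1.95 was called (adjusted p = 0.048). Wwtr1 was above background on 2 of the 3 iISC arrays.

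Of the RNA-binding and growth genes tied to Lin28, Hmga2 fell by 3.72 ± 0.33 and Igf2bp3 fell by 2.79 ± 0.52, and Hmga1, kept in dividing epithelium, was not called at 0.55 ± 0.15. Lin28a was above background on no iISC or MEF array.

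Defence genes changed with cell type. Of 10 genes of class I antigen presentation, 4 were higher and 4 lower, with a median of -0.48. The classical class I genes H2-K1 and H2-D1 rose by 2.85 ± 0.24 and 1.64 ± 0.15. Interferon-induced genes were lower for 12 of 16, and Isg15 fell by 4.44 ± 0.98, from MEF levels of 1.87 and 0.00. Against that direction the sensor Ifih1 rose by 1.50 ± 0.24 and the factor Irf7 by 1.42 ± 0.59. The Irf7 call ended without iISC sample 2, iISC sample 3 or the merged MEF sample, with adjusted p of 0.0769, 0.135 and 0.351, and with normexp (adjusted p = 0.108) or only the 5 samples (adjusted p = 0.0535). On the spike-in scale the interferon list had 5 lower. The epithelial antibody carrier Pigr was at least 1990-fold higher, and the chemokine Ccl25, which calls T cells to the small bowel, rose by 7.05 ± 0.44. Stromal chemokines were lower, Cxcl12 at least 2860-fold and Cxcl14 at least 1300-fold.

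Markers of other cell types were checked on both sides. Of 12 immune markers tested 9 were lower in the organoids, and Cd14 rose by 1.96 ± 0.60 (adjusted p = 0.0683 without the merged MEF sample). Adgre1, which marks macrophages, read -0.63 and 0.65 in MEFs and was above background on no iISC array. The summed linear level of the immune list was 5.97 and 8.99 in the MEF samples and 1.24 to 3.01 in the organoids. Of 7 endothelial markers tested, 2 were higher and 4 lower. Esam rose by 2.03 ± 0.63 and Vwf by 1.71 ± 0.67, calls that ended with normexp, at 0.48 and 1.05. The Esam call also ended without MEF sample 1 (adjusted p = 0.116), and that of Vwf without iISC sample 2 or 3 or either MEF sample (adjusted p = 0.0732 to 0.165). Kdr and Flt1 were at least 70.9-fold and 159-fold lower, but Pecam1 and Cdh5 were above background on neither side. The summed level of the endothelial list was 4.58 and 8.21 in the MEF samples and 1.33 to 2.64 in the organoids. The neural list summed to 13.3 and 29.3 in the MEF samples, mostly Uchl1, and to 0.921 to 1.07 in the organoids. Of the neural markers Snap25, also found in enteroendocrine cells, was at least 10.8-fold higher, and Ret and Gfap were above background on neither side. In the hepatocyte list, Alb could not be tested, with 2 of 3 iISC arrays above background, and Ttr, which gut cells also make, was at least 20.5-fold higher. Neither Pou5f1 nor Nanog of pluripotent cells was above background on all arrays of a side. The hepatocyte list summed to 0.386 and 2.05 in the MEF samples and 1.49 to 1.84 in the organoids. The part of such cells in the values of either side was not tested. Esam was above background on 2 of the 3 MEF arrays.

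Against crypt organoids, the iISC organoids differed in 466 of 13612 genes (3.42%), with 283 higher (2.08%) and 183 lower (1.34%) by a limma fit over the 12 organoid arrays. The arrays of these groups lie on different slides, so slide and group cannot be told apart in this comparison. Among genes of the lists the count was 58 of 763, with 37 higher. Calls for Alpi, Apob, Cyp2b10, Foxa1, Nts and Onecut3 were lost when all 17 samples entered the fit, with adjusted p of 0.187, 0.235, 0.0723, 0.0652, 0.123 and 0.0563. Against crypt organoids, 4 of 15 collagens, 8 of 20 glycoproteins and 3 of 13 proteoglycans and lysyl oxidases were tested. With 18 of 20 tight junction genes tested as well, only Thbs1 of these lists was called, at 2.89 ± 0.60. The basement membrane, matrix protease and caveolae lists had calls for Nid1, for Timp2 and Mmp14 and for Cavin1. Genes above crypt level included Abca8b (at least 18.1-fold), Aldh1a3 (at least 16.3-fold), Tlr4 (4.77 ± 1.17) and Tead4 (2.73 ± 0.54). Tlr4 was above background on 1 of the 3 crypt arrays and Thbs1 and Tead4 on 2 of them. Abca8b, Aldh1a3, Tlr4 and Tead4 were not called different from MEFs. Genes below crypt level included Arg2 (-3.43 ± 0.72), Akr1b7 (-3.94 ± 0.61), Cyp2b10 (-2.34 ± 0.41) and Afp (-5.48 ± 0.94).

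Against the fetal-type induced organoids, which were cultures of spheres and buds together, the iISC organoids differed in 1093 of 13774 genes (7.94%), with 443 higher (3.22%) and 650 lower (4.72%). In the lists the count was 178 of 830, with 64 higher and 114 lower. Sugar transport genes were higher for 6 of 12, Slc5a1 by 2.22 ± 0.46 and Slc2a2 by 3.32 ± 0.95, and hormone genes for 7 of 17, Gip by 3.29 ± 0.84. Reg3a was 6.72 ± 1.01 higher. Matrix glycoproteins were lower for 7 of 14, Fn1 at least 44.7-fold, and fetal spheroid genes for 7 of 10, Clu by -6.13 ± 0.84. Of 9 gastric markers 3 were lower. Tff1 differed by -9.94 ± 0.93 and Gkn3 by -4.28 ± 1.01, and Gkn2 was at least 1230-fold lower. Both induced cultures had Hoxa11 and Tbx15 close to MEF level, with iFIPC means of 2.96 ± 0.21 and 1.45 ± 0.41, whereas Pitx1 read -8.80, -8.04 and -4.46 in the iISC organoids and 2.30 ± 0.63 in the iFIPC organoids.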

How the data were processed

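Total RNA had been labelled with Cy3 and hybridised to 1-colour Agilent mouse arrays, and spot intensities had been read by Agilent Feature Extraction. The submitters' processing notes give version 9.5.1.1 of this program. The file headers give 9.5.1.1 for the MEF and iHep arrays and 10.7.1.1 for all organoid arrays. Per the file headers, the deposited intensity values (gProcessedSignal) were already background-corrected by that program, which also wrote the flags for spots well above background. The authors' series matrix held a second set of linear intensities with a median of 59.32 on each array. They correlated at 1 with quantile-normalized gProcessedSignal, how their level was set is not given in the sources used here, and they served as an alternative.

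From these files, repeated spots of a probe were averaged, log2 taken and each array's 75th percentile over its gene probes subtracted. MEF arrays 2 and 3 were averaged to 1 sample. Of 41174 gene probes, 8451 had no gene name here. The rest named 19728 genes through RefSeq accessions, symbols or synonyms. The probe with the highest mean level stood for a gene, and a gene was tested when all arrays of 1 side or of both carried that probe's flag for being above background. The contrast of iISC organoids and MEFs was fitted by limma 3.58.1 under R 4.3.3 (lmFit and eBayes over all 17 samples, 11 residual degrees of freedom, two-sided, Benjamini-Hochberg adjustment). A call needed an adjusted p below 0.05 together with a change of 1 log2 unit or more. All adjusted p-values are limma's. Differences from crypt and iFIPC organoids come from limma over the 12 organoid arrays. The fit was tested on simulated data.

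The comparison and the gene lists were chosen with earlier results of these data known, and the lists are from textbook knowledge. The text names anchor genes of each cell type, members of the lists (by the size of their change in longer lists), called members against their list, and some of the 15 largest rises and 15 largest falls without overlap. Genes in the paragraph on samples that stood apart, and HoxB and other members picked for their spread, were chosen after their values were seen. Alternatives changed the background correction, the scaling, the filter, the probe rule, the samples in the fit, the minimum change, the slide block and the replicate block, and left out each sample in turn. The number of arrays limits the precision. Some genes that the naming rule picks are not reported here.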

Additional observations from a re-analysis of the deposited data

Results flagged for a closer look

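Genes whose change from MEFs differed between the iISC organoids and the crypt organoids are listed here, with the difference iISC minus crypt in log2 units, from which the shared MEF samples cancel. Each was called by limma over the 12 organoid arrays, with 3 samples on each side. The iISC and crypt arrays share a scanner model but lie on different slides, so slide and group cannot be told apart. Where no array of the dimmer group was above background, only a bound is given. Above crypt organoids stood middle and posterior Hox genes, Hoxa11 at least 460-fold, Hoxd9 at least 6.33-fold and Hoxa13 at least 5.67-fold. The differences were 8.44 for Hoxa10 (1 of 3 crypt arrays above background), 4.38 for Hoxa7 and 3.48 for Hoxa9. Other transcription factors above crypt level were Tbx15, a factor of trunk and limb mesenchyme, at least 263-fold, Foxc1 (5.57, with 1 of 3 crypt arrays above background), Tead4 (2.73, with 2 of 3), Id3 (1.93) and Klf4 (1.44). Matrix, membrane and filament genes above it were Abca8b (at least 18.1-fold), Nid1 (4.37), Anxa1 (3.58), Nes (3.30), Ccn2 (2.96), Thbs1 (2.89, with 2 of 3 crypt arrays above background), Timp2 (1.79) and Cavin1 (1.45). Ileal and hormone genes above it were Slc10a2 (6.46), Pyy (5.26), Nts (3.08), Guca2a (2.91) and the tuft cell gene Rgs13 (1.88). Aldh1a3, of vitamin A handling, was at least 16.3-fold higher and the cell cycle inhibitor Cdkn2a at least 2.66-fold, and the receptor Tlr4 differed by 4.77 (1 of 3 crypt arrays above background).

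Genes below crypt level included the factors Pitx1 (-9.59, with 1 of 3 iISC arrays above background), Onecut2 (-5.27), Foxa1 (-3.53), Onecut3 (-1.97, with 2 of 3) and Nr1i3 (-1.15). The enterocyte genes among them were Akp3 (at least 5.69-fold lower), Akr1b7 (-3.94), Arg2 (-3.43), Cyp2b10 (-2.34), Alpi (-2.21) and Apob (-1.72). Afp, a fetal serum protein, differed by -5.48 and Mmp14 by -1.84, and Fstl1 was at least 3.90-fold lower.

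In the lists, 178 of 830 genes were called different from iFIPC organoids. The difference is repeated here for the 9 genes for which it was given above, and not for every called gene of the text. It was 6.72 for Reg3a, 3.32 for Slc2a2, 3.29 for Gip and 2.22 for Slc5a1. It was -9.94 for Tff1, -6.13 for Clu and -4.28 for Gkn3, and Gkn2 was at least 1230-fold and Fn1 at least 44.7-fold lower. The cause of the differences in these groups was not tested.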

How the results depend on the processing

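Of 14792 genes tested 7179 were called, and the number lay between 6895 and 7146 when 1 sample at a time was left out, where a lone MEF sample is assumed to vary like the other groups. It was 6063 with normexp background correction (5974 of them shared), 7051 after quantile normalization and 7655 of 19716 with no filter. Counts moved by more than 1.5 times in 3 settings. With genes above background on every array of both sides, 4645 were called, 2147 of them lower, and 351 list members were called in place of 734, since this filter removes genes that are off on 1 side. With a minimum change of 2, 4393 were called and 1880 were higher. Scaled on the spike-ins, an alternative chosen after seeing the data, 6920 were higher and 2411 lower, with a shift of 0.93 in the median. The replicate numbers do not pair the arrays. The correlations of same-numbered deviations were -0.03, 0.03 and -0.06, and not every array correlated best with its own number. With the 6 arrays as separate samples 7229 genes were called with the replicate block and 7319 without it. Slide as a random block gave 7187, with a consensus correlation of -0.007. Of 5598 values of the genes named, 5405 kept their direction and side of the threshold, 84 lost a call, 71 gained one and 38 changed sign, in 15 genes. None of the 15 was called. Itgb3 became -4.96 on the mean of its bright probes. With normexp Dclk1 was 0.49, Hoxa13 -0.28 and Tead4 -0.01. On quantile scaling and on the authors' values Hoxb6 was 0.15 and Mylk -0.11, and Mylk was -0.13 on the mean of bright probes. Hoxa13 was -0.34 with only the 5 samples and -0.07 with the 6 arrays, with or without the replicate block, and Hoxb6 was 0.02 there and with all 18 arrays. On the spike-in scale Dclk1 was 0.28, Hoxa7 0.77, Hoxb6 0.90, Hoxd9 0.21, Itga1 0.39, Nes 0.05, Rrm2 0.27, Slc2a1 0.74 and Tbx15 0.03. When an iISC sample or MEF sample 1 was left out, Aldh1a3 ran from -0.05 to 1.49, Dclk1 from -0.73 to 1.30, Hoxa7 from -0.49 to 0.13, Hoxa13 from -0.05 to 1.51, Hoxb6 from -0.10 to 0.13, Mylk from -0.06 to 0.06 and Tead4 from -0.05 to 0.47. Without the merged MEF sample Dclk1 and Hoxa7 were 0.03, Hoxa11 -0.15, Hoxa13 -0.24, Mylk -0.01 and Tead4 -0.03. The cause of these changes of sign was not tested. Against crypt organoids, the calls for Cavin1 and Tlr4 were lost on quantile scaling (limma adjusted p = 0.0612 and 0.0519). Genes off on 1 side have a bound only, set by the lowest signals above background.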
